A study of Mus musculus with 12 samples.

Results

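Kcnq1, Kcnq3, Kcnq5, Kcne1, Kcne2, Kcne3 and Kcne4 were followed along the cochlea of male C57BL/6 mice aged 6 weeks. The members were the non-control probes whose gene name on the array was one of these symbols, and all 7 genes were found, with 46 probes of the 165865 probes and 19505 genes in use. The 12 single-color exon arrays comprised 4 of the apical, 4 of the middle and 4 of the basal turn, each for 1 sample labeled from 25 ng of RNA. The labels name no modified allele and no experimental treatment. Each sample was a whole turn that joined the spiral ganglion and the organ of Corti with the lateral wall, and in such a mixture fewer cells of a type and less RNA per cell cannot be told apart. Every turn had its own slide for its 4 arrays, so slide and turn cannot be told apart.

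Kcnq genes encode the pore-forming subunits of the Kv7 voltage-gated potassium channels, and Kcne genes encode small single-pass membrane proteins that assemble with them and change how they open. In the stria vascularis, the secretory epithelium of the lateral wall, KCNQ1 and KCNE1 form the apical channel of the marginal cells that releases potassium into the endolymph. KCNQ3 and KCNQ5 belong to the neuronal branch of the family, which carries the M current that muscarinic receptors inhibit through Gq and phospholipase C.

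Signals were put on a common scale by the 75th percentile of each array, which ran from 534.6 to 722.1 before scaling, and a gene's signal was the mean of the log2 values of its probes. The share of spots well above background ran from 77.4% to 81.5%, no spot was saturated, and within a turn the arrays differed with a median SD per gene of 0.11 to 0.13 log2 units. Markers of the dissected tissues were present: summed hair cell signals ran from 14820 to 19073 on the apical arrays and from 4681 to 7012 on the basal arrays. Summed signals here and below add linear values, so the brightest genes of a list weigh most. In the hair cell sums this was Ocm, with mean signals of 13948 in the apical and 3771 in the basal turn. A difference was called where limma's moderated contrast over the 12 arrays had a Benjamini-Hochberg adjusted p under 0.05 among all 19505 genes. Per the methods, the 4 arrays of a turn held independent mouse samples. The methods name 4 mice in all, so by them the 12 arrays came from 4 mice and each mouse gave all 3 turns. The labels do not tie the arrays of different turns to 1 mouse. The contrasts therefore treated the 12 arrays as independent.

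The probes are 60 bases long and their positions are given on mouse build mm9. Kcnq1 had 15 probes between chr7:150293587-150612946 on the plus strand, Kcnq3 had 14 between chr15:65826897-66117486 on the minus strand, and Kcnq5 had 13 between chr1:21392496-21951354 on the minus strand. Each Kcne gene had 1 probe, at chr16:92346251-92346310 (minus strand) for Kcne1, chr16:92298236-92298295 (plus strand) for Kcne2, chr7:107332867-107332926 (plus strand) for Kcne3 and chr1:78814337-78814396 (plus strand) for Kcne4. A single probe has no second probe of its gene to set beside it, so the Kcne results rest on the sequence of that probe alone. The sequences of the Kcne3 and Kcne4 probes are shown since each is the whole evidence for its gene.
Kcne3 probe A_55_P2108708: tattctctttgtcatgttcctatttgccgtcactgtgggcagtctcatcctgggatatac
Kcne4 probe A_55_P1990535: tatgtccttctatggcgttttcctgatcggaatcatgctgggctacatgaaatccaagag

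Kcnq genes resemble each other, so the probes of different members were aligned without gaps in 761 pairs. The pair with the highest number of identical bases, though not with the highest share of its overlap, is shown with those bases in capitals. It joined a Kcnq5 probe (chr1:21395874-21395933) with a Kcnq3 probe (chr15:65833758-65833817) and was identical at 43 of 59 bases.
Kcnq5 probe A_56_P073897: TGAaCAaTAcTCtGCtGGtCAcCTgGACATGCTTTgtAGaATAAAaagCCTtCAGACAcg
Kcnq3 probe A_56_P213782: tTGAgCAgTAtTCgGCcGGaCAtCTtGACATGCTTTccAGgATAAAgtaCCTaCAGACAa
The Kcnq3 probe A_56_P213782 was the brightest of its gene and was well above background on all 12 arrays. The Kcnq5 probe A_56_P073897 was well above background on no array, with mean signals of 14.2, 14.8 and 13.0 in the apical, middle and basal turn.

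Of the 7 genes, 4 were called different between the apical and basal turns. Kcnq3 and Kcne4 were higher in the apical turn, and Kcnq1 and Kcne2 were higher in the basal turn. These 4 of 7 are to be read against 39.2% of all genes called in this comparison, 17.6% higher in the apical turn and 21.6% higher in the basal turn. Arrays of the 2 turns did not overlap for 4 members, against 38.3% of all genes. The median size of the log2 difference was 0.55 over the 7 members and 0.19 over all genes. Of the 7 members 4 rest on 1 probe, and the part of probe number in these sizes was not tested. In apical versus middle 3 members were called against 12% of all genes. Kcnq3 and Kcne4 were higher in the apical turn (4.42% of all genes) and Kcnq1 in the middle turn (7.59%), and the 3 did not overlap (20.8%). In middle versus basal 3 members were called against 20.9%. Kcnq3 and Kcne4 were higher in the middle turn (11.7% of all genes) and Kcne2 in the basal turn (9.21%), and 1 member, Kcne4, did not overlap (24.1%). The moderated F test over the 3 turns passed for the same 4 genes as in apical versus basal, with 38.6% of all genes passing. With a further requirement of a 2-fold difference, Kcnq3 and Kcne4 remained in apical versus basal, against 4.39% of all genes, Kcne4 alone in middle versus basal, against 2.66%, and no member in apical versus middle, against 0.436%.

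**Figure D1:**
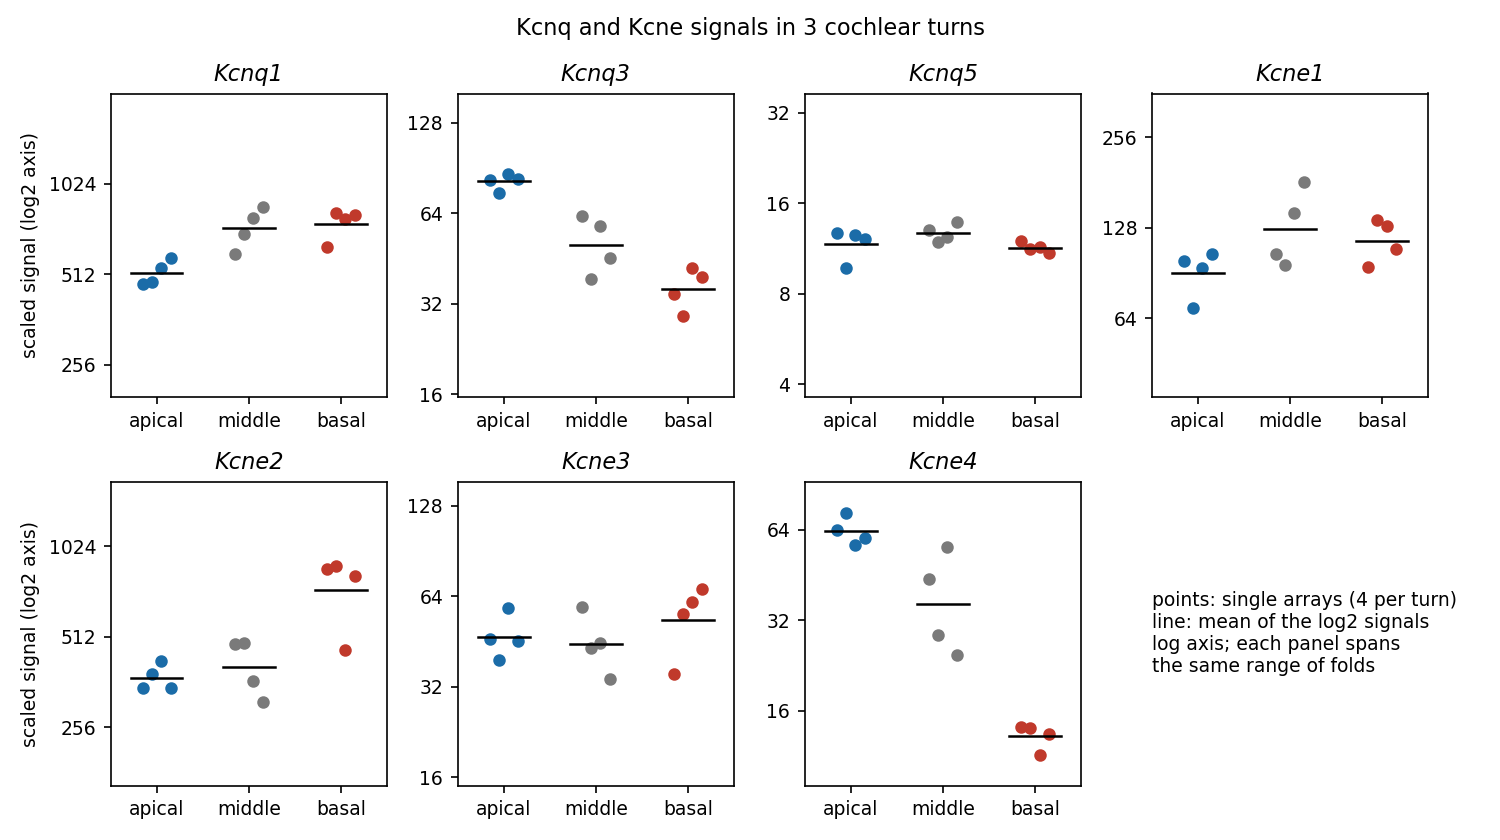
Scaled signal of each of the 7 genes on the single arrays (points, 4 per turn) with the mean of the log2 signals (line), on a log2 axis that spans the same range of folds in each panel. Kcnq3 and Kcne4 step down from the apical to the basal turn, Kcnq1 is lowest on the 4 apical arrays, and Kcne2 is highest on 3 of the 4 basal arrays with the remaining one at 464.

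Kcnq1, the pore subunit of the strial channel, was lower in the apical turn than in both other turns. Its signals on the apical arrays were 476, 483, 539 and 578. They were 597, 694, 786 and 858 on the middle arrays and 633, 819, 781 and 804 on the basal arrays. All apical arrays lay below all middle and basal arrays, while the middle and basal arrays overlapped. The basal turn was 1.46-fold higher than the apical turn (log2 difference -0.55 ± 0.12 SE apical minus basal, limma adjusted p = 0.0042) and the middle turn was 1.41-fold higher (-0.49 ± 0.12, adjusted p = 0.026). Middle and basal turns were not separated, with a log2 difference of -0.05 and a 95% confidence interval from -0.32 to 0.21 (adjusted p = 0.78). The apical versus middle call was lost when apical replicate 1, 2 or 3 or middle replicate 2 or 4 was left out, with adjusted p values up to 0.08, and with the median of the probes (0.095).

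Kcne1 encodes the accessory subunit that gives this channel its slow gating. Its signals were 99.1, 69.0, 93.9 and 105 on the apical arrays, 105, 96.1, 143 and 181 on the middle arrays and 94.98, 136, 130 and 109 on the basal arrays. The 3 turns overlapped and no comparison passed. The apical minus basal log2 difference was -0.36, with a 95% confidence interval from -0.81 to 0.10 (adjusted p = 0.21), and apical minus middle was -0.49, from -0.94 to -0.03 (adjusted p = 0.13). The interval of apical minus basal holds the estimate for Kcnq1. Tested directly, as the per-array log2 signal of Kcnq1 minus that of Kcne1, the turns differed by -0.19 in apical versus basal (exact permutation test, two-sided, p = 0.2, adjusted p = 0.275 over 6 comparisons of 2 gene pairs; 97.1% interval -0.62 to 0.22). In apical versus middle this difference was -0.0019 (exact permutation p = 1, interval -0.59 to 0.57), and in middle versus basal it was -0.19 (exact p = 0.229, adjusted p = 0.275, interval -0.64 to 0.26).

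The 15 Kcnq1 probes were all well above background on all 12 arrays. All 15 were lower in the apical than in the basal turn, by log2 differences from -0.81 to -0.25, and 12 of them passed the test over single probes, which 34.4% of all probes passed, 16.4% with the higher signal in the basal turn. In apical versus middle 8 of the 15 passed, all higher in the middle turn (5.91% of all probes in either direction, 2.86% in this one), and in middle versus basal none did (13.8% of all probes). The probes of a gene share its RNA and its arrays and are not replicates. The size of the difference changed along the transcript. When the probes were split at the middle of their order, the median was -0.38 on the 5' side and -0.73 on the 3' side, a step of -0.35. Among 4945 genes with 10 or more probes the median of this step was -0.10, 74.4% of the steps were below 0, and 7.18% were lower than that of Kcnq1. The part of RNA quality in this step was not tested.

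For 3 Kcnq1 probes the turn profile differed from that of the gene's other probes (limma moderated F test of each probe minus the mean of the others, adjusted p under 0.05), which 6.29% of 159900 probes passed. In the apical versus basal contrast of this test 6 of 15 Kcnq1 probes, 3 of 14 Kcnq3 probes and 1 of 13 Kcnq5 probes passed, against 10.4%. The 3 Kcnq1 probes past the F test are shown with their position, since they mark parts of the trend along the transcript. The first lies at base 500 of the transcript (chr7:150335415-150335474), the second at base 1632 (chr7:150544631-150544690) and the third at base 1836 (chr7:150549540-150549599).
Kcnq1 probe A_56_P046657: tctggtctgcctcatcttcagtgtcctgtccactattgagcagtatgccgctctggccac
Kcnq1 probe A_56_P046667: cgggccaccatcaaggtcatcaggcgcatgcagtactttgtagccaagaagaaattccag
Kcnq1 probe A_56_P046669: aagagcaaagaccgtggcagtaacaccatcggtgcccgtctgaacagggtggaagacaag
On A_56_P046657 the apical arrays read 423, 381, 411 and 498 and the basal arrays 474, 514, 511 and 524, so that the turns overlapped. Its apical minus basal log2 difference was -0.25 ± 0.11, which lay 0.32 above that of the other probes (F adjusted p = 0.047). On A_56_P046669 the apical arrays read 377, 382, 417 and 515 and the basal arrays 590, 821, 804 and 744, with no overlap. Here the difference was -0.81 ± 0.16, 0.28 log2 units beyond the other probes in the same direction (F adjusted p = 0.023). A_56_P046667 had -0.76 ± 0.15 (F adjusted p = 0.036). The brightest Kcnq1 probe, at chr7:150612887-150612946 and base 2968, had mean signals of 8127 ± 919 (SD, n = 4) in the apical turn and 13084 in the basal turn, a log2 difference of -0.68 ± 0.13.

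**Figure D2:**
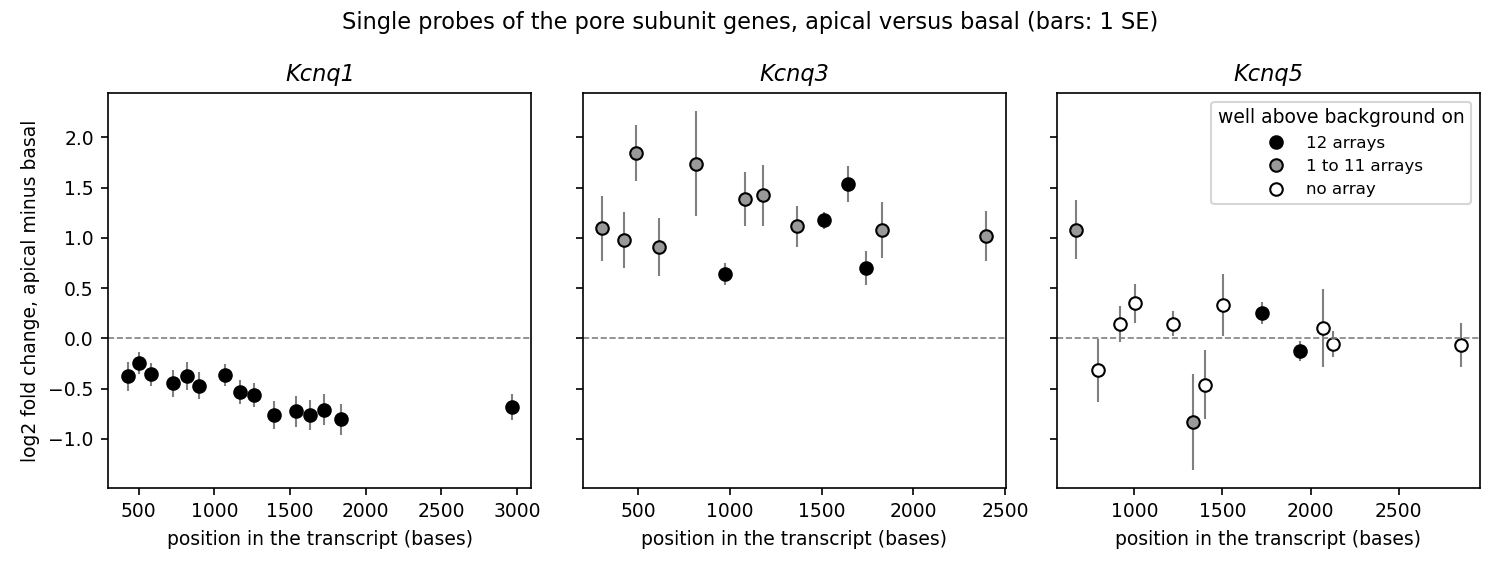
Log2 difference of apical minus basal signal for each probe of Kcnq1, Kcnq3 and Kcnq5 (bars, 1 SE) against the position the array design gives it in its transcript, with the fill showing on how many arrays it was well above background; 4 Kcnq5 positions are counted on a different transcript from the other 9. The 15 Kcnq1 probes lie between -0.81 and -0.25, the 14 Kcnq3 probes between 0.64 and 1.84, and the Kcnq5 probes on both sides of 0.

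Kcnq3 encodes a subunit that joins other neuronal Kv7 subunits in the M channel. It decreased from apex to base. Its signals were 82.8, 74.9, 86.3 and 83.3 on the apical arrays, 62.7, 38.8, 58.0 and 45.5 on the middle arrays and 34.4, 29.0, 42.2 and 39.3 on the basal arrays. The apical arrays lay above all others, while 2 basal arrays lay within the range of the middle arrays. The apical turn was 2.28-fold higher than the basal turn (log2 difference 1.19 ± 0.15, adjusted p = 0.00016) and 1.62-fold higher than the middle turn (0.70 ± 0.15, adjusted p = 0.017). Middle over basal was 1.40-fold (0.49 ± 0.15, adjusted p = 0.044), and this last call was lost in 14 of 25 alternatives, among them leaving out any 1 array other than middle replicate 2 or 4 or basal replicate 3. Apical over middle missed the threshold without middle replicate 4 (adjusted p = 0.053). With limma's normexp correction and an offset of 50 the apical minus basal difference was 0.45 (adjusted p = 0.00015).

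All 14 Kcnq3 probes were higher in the apical than in the basal turn and all 14 passed the test over single probes, which 18% of all probes passed in this direction. The log2 differences ran from 0.64 to 1.84. All 14 were well above background on the 4 apical arrays, but 4 of them were so on all 4 middle arrays and 6 on all 4 basal arrays. No probe differed from the others by the F test. With a filter for probes well above background 2 of the 14 did, and 4 of the 15 Kcnq1 probes in place of 3. To stay in, a probe had to pass on every array of any single turn. The filter therefore removed none of the 14 Kcnq3 probes, which all passed in the apical turn, and none of the 15 Kcnq1 probes. These counts thus do not show what leaving out dim probes of either gene would do. The step from the 5' to the 3' side was 0.018. In apical versus middle 2 of the 14 passed, higher in the apical turn (3.04% of all probes), and in middle versus basal 3 did, higher in the middle turn (7.76%). On its brightest probe the apical arrays read 186, 172, 200 and 183, the middle arrays 135, 90.5, 105 and 91.0, and the basal arrays 76.5, 45.2, 78.2 and 60.6, and no turn overlapped another.

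Markers of neurons moved in the same direction. Of 8 neuronal markers 7 were higher in the apical than in the basal turn (17.6% of all genes), 1 was higher in the apical than in the middle turn (4.42%), and all 8 were higher in the middle than in the basal turn (11.7%). Their summed signals were 28478 to 37090 on the apical arrays, 26251 to 46308 on the middle arrays and 5830 to 24795 on the basal arrays, where replicate 3 held the highest value. The markers of hair cells (6 of 7) and of Schwann cells (5 of 5, summed signals 12748 to 14406 on the apical and 6355 to 12242 on the basal arrays) were also higher in the apical than in the basal turn. In apical versus middle 3 of 7 hair cell and 0 of 5 Schwann cell markers were higher in the apical turn (4.42%). In middle versus basal 6 hair cell and all 5 Schwann cell markers were higher in the middle turn (11.7%). The remaining hair cell marker was higher in the basal turn (9.21%). The part of these cells in the Kcnq3 and Kcne4 differences was not tested.

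Kcnq5, the other neuronal pore subunit here, gave low signals in every turn, with 12.8, 9.73, 12.5 and 12.2 on the apical arrays, 13.0, 11.9, 12.4 and 13.8 on the middle arrays and 12.04, 11.3, 11.4 and 10.9 on the basal arrays. The turns overlapped, and no comparison passed. The 95% confidence interval of apical minus basal ran from -0.15 to 0.23 log2 units (adjusted p = 0.75). Of its 13 probes 9 were well above background on no array, so that the gene mean is mostly background, and 2 were so on all 12 arrays. These were A_56_P073895 at chr1:21447588-21447647, with mean signals of 82.6, 82.7 and 69.0 in the apical, middle and basal turn, and A_56_P073896 at chr1:21414130-21414189, with 60.1, 57.8 and 65.3. Neither of the 2 passed in apical versus basal (adjusted p = 0.11 and 0.39). The 1 Kcnq5 probe that passed, A_56_P073887, was well above background on a single middle array.

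The per-array log2 signal of Kcnq3 minus that of Kcnq5 fell from the apical turn to both other turns without overlap, by 1.15 log2 units to the basal turn and 0.82 to the middle turn. Each had an exact permutation p of 0.0286, the smallest that 4 against 4 arrays can give, and an adjusted p of 0.0858 over the 6 comparisons. Most Kcnq5 probes were at background, so these values hold little of Kcnq5. Middle minus basal was 0.32 (exact p = 0.171, adjusted p = 0.275).

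Kcne2 encodes an accessory subunit found with KCNQ1 in several secretory epithelia, where the channel stays open at rest. It was higher in the basal turn than in both other turns. Its signals were 346, 385, 427 and 347 on the apical arrays, 485, 488, 366 and 311 on the middle arrays and 860, 883, 464 and 816 on the basal arrays. Basal replicate 3 stood apart at 464, within the range of the middle arrays, and the other basal arrays lay above all apical and middle arrays. The basal turn was 1.95-fold higher than the apical turn (log2 difference -0.97 ± 0.21, adjusted p = 0.0037) and 1.81-fold higher than the middle turn (-0.85 ± 0.21, adjusted p = 0.016). Without basal replicate 3 the differences were -1.18 (adjusted p = 0.00021) and -1.07 (adjusted p = 0.00083). Apical and middle turns were not separated (-0.11, 95% confidence interval -0.57 to 0.35, adjusted p = 0.76). On basal replicate 3 the summed neuronal, Schwann cell and bone markers were the highest of the basal turn. The summed marginal cell markers were the lowest, at 20242 against 21004 to 23455, as were those of skeletal muscle and macrophages. The part of any of these cells in the Kcne2 value was not tested.

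Kcne3, whose product holds KCNQ1 open in epithelia, showed no difference between turns that passed. Its signals were 46.2, 39.3, 58.3 and 45.6 on the apical arrays, 58.8, 43.2, 44.6 and 34.0 on the middle arrays and 35.3, 55.7, 61.1 and 67.9 on the basal arrays. The turns overlapped throughout, and the probe was not well above background on middle replicate 4 and basal replicate 1. The 95% confidence interval of apical minus basal ran from -0.66 to 0.28 log2 units (adjusted p = 0.56).

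Kcne4, whose product inhibits KCNQ1 channels in expression systems, was higher in the apical than in the basal turn. Its signals were 64.0, 73.0, 56.8 and 59.8 on the apical arrays, 43.8, 28.6, 56.0 and 24.4 on the middle arrays and 14.1, 13.98, 11.4 and 13.4 on the basal arrays. The turns did not overlap in any comparison, although the highest middle array lay just below the lowest apical array. The probe was well above background on all 4 apical arrays, on 2 middle arrays and on no basal array, so the basal level is only an approximate bound. By this bound the apical turn was 2.33-fold higher than the basal turn (measured means 4.80-fold apart, log2 difference 2.26 ± 0.22, adjusted p = 2.3e-05). The measured difference was the largest of the 7 genes, while the bound is close to the 2.28-fold of Kcnq3. Middle minus basal was measured at 1.46 ± 0.22 (adjusted p = 0.0014), and no bound is given since 2 of the 4 middle arrays were themselves not well above background. The bound sets the dim group at the lowest signal among probes with all spots well above background. Where the group's own signal is higher, that signal is used. With probes counted when any of their spots was well above background, a reading compared after the values were known, it was 4.55-fold. Neither is a strict limit, since a probe not well above background can read higher than the lowest counted signal. Kcne3 did so on basal replicate 1, at 35.3 against 28.1. Apical over middle was 1.75-fold (0.80 ± 0.22, adjusted p = 0.039), a call lost in 12 of 25 alternatives, among them leaving out any apical array, middle replicate 2 or 4, or basal replicate 1 or 2. With the normexp correction and an offset of 50 the apical minus basal difference was 0.73 (adjusted p = 2.6e-06).

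**Figure D3:**
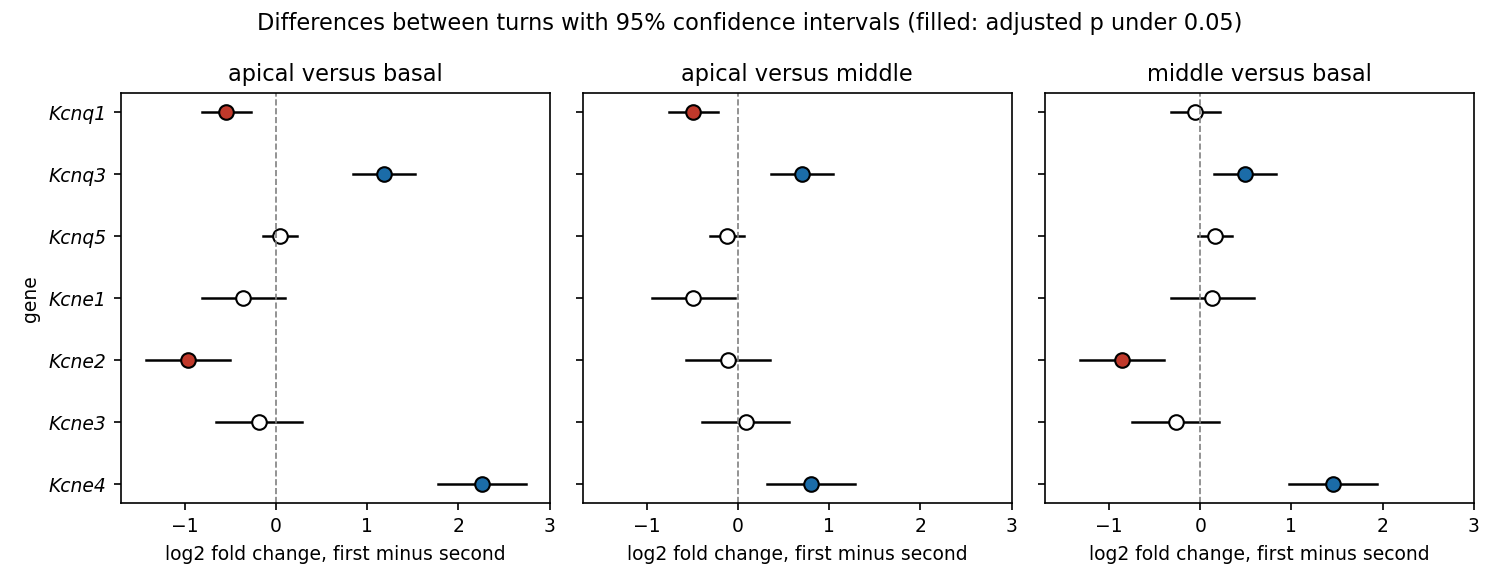
Log2 fold change of each gene in the 3 comparisons of turns (first turn minus second) with its 95% confidence interval, filled where the adjusted p was under 0.05, blue for higher in the first turn and red for higher in the second. Kcne4 at 2.26 and Kcnq3 at 1.19 lie furthest to the right in apical versus basal, and Kcne2 at -0.97 furthest to the left.

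Genes that act with Kv7 channels were taken from 3 lists. Of 9 partners and regulators on the array 5 passed in apical versus basal, against 39.2% of all genes. Of these, 3 were higher in the apical turn (17.6% of all genes) and 2 in the basal turn (21.6%), with a median log2 difference of 0.07 against -0.04 over all genes. Akap5, which anchors kinases at M channels, had a mean signal of 86.8 ± 10.3 (SD, n = 4) at the apex, 49.97 ± 7.49 in the middle and 21.3 ± 2.66 at the base. It was not well above background on any basal array, and the apical turn was 3.17-fold higher by the same approximate bound (measured 4.08-fold, log2 difference 2.03 ± 0.12, adjusted p = 1e-06). Ank3, which encodes the ankyrin that holds neuronal Kv7 channels at the axon initial segment, was higher in the apical turn by 0.54 ± 0.07 (adjusted p = 0.00018). Slc5a3, a myo-inositol transporter that associates with Kv7 channels, was higher in the basal turn (-0.39 ± 0.10, adjusted p = 0.012), as was Sgk1, a kinase that raises channel number at the membrane (-0.28 ± 0.08, adjusted p = 0.018). With quantile normalization Slc5a3 and Sgk1 no longer passed (adjusted p = 0.43 and 0.16), and with scaling to the spike-in probes Ank3 did not (0.05, adjusted p = 0.72). The count in apical versus basal was 3 without apical replicate 1 or basal replicate 2. In apical versus middle 2 of the 9 passed, against 12% of all genes, and in middle versus basal 3, against 20.9%. The first of these counts was 1 without apical replicate 1 or 2 or middle replicate 2 and with quantile normalization, and 4 with scaling to the spike-in probes. The other was 5 without basal replicate 3. It was also 5 with quantile normalization, normexp, well-above-background probes alone, 16 added to each signal, or limma's trend and robust options.

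Of 10 genes of Gq signalling, the route by which muscarinic receptors close M channels, 4 passed in apical versus basal, a share of 40% beside 39.2% of all genes, and the median difference was 0.01. The phospholipase C genes Plcb4 (0.65 ± 0.11, adjusted p = 0.00075) and Plcb1 (0.83 ± 0.15, adjusted p = 0.0012) were higher in the apical turn, and Gna11, which encodes a G protein alpha subunit, was higher in the basal turn (-0.48 ± 0.07, adjusted p = 0.00022). Chrm3, a muscarinic receptor, is the fourth gene in the count (adjusted p = 0.0078), but it was well above background on 2 apical arrays and on no basal array, so that neither the size nor the direction of its difference has a bound. With scaling to the spike-in probes Plcb4 and Plcb1 no longer passed (adjusted p = 0.24 and 0.065). None of the 10 passed in apical versus middle by limma, against 12% of all genes, with 1 at an unadjusted p under 0.05 and 2 past the threshold with scaling to the spike-in probes. In middle versus basal 4 passed, against 20.9%, and 1 of them was Chrm3, which was well above background on no array of these turns.

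All 10 genes that serve strial potassium secretion outside Kv7 were higher in the basal than in the apical turn (21.6% of all genes), the direction of Kcnq1 and Kcne2, with a median difference of -0.58. They included the Na,K-ATPase gene Atp1b1 (-0.41 ± 0.05, adjusted p = 0.00012), the intermediate cell potassium channel Kcnj10 (-0.77 ± 0.08, adjusted p = 2.5e-05) and the cotransporter Slc12a2 (-0.52 ± 0.06, adjusted p = 8.9e-05). These named genes passed under the other scalings too, but their sizes moved. With quantile normalization they were -0.14, -0.51 and -0.27, and with scaling to the spike-in probes -0.89, -1.26 and -1.01. In apical versus middle 9 of the 10 passed, all higher in the middle turn (7.59% of all genes), and in middle versus basal 3 passed, all higher in the basal turn (9.21%), a count that was 8 with scaling to the spike-in probes. Of 6 marginal cell markers 5 were higher in the basal than in the apical turn, with summed signals of 15051 to 16653 on the apical, 18109 to 20731 on the middle and 20242 to 23455 on the basal arrays; all 5 also stand in the list of 10. Of 5 intermediate cell markers 4 were higher in the basal turn, and 1 of these 4, Kcnj10, also stands in the list of 10. All 4 fibrocyte markers were higher in the basal turn, with summed signals of 263990 to 287450 on the apical and 517760 to 581340 on the basal arrays. Markers of smooth muscle and pericytes (4 of 5) and of macrophages (4 of 5) were higher in the basal turn too. Of the skeletal muscle markers 1 of 5 and of the bone markers 1 of 6 were, which is near the 21.6% of all genes. The summed skeletal muscle signals were 335 to 353 on the apical and 437 to 596 on the basal arrays. The median difference of the bone markers was 0.18, higher in the apical turn. Apical replicate 4 stood apart with a summed bone signal of 4965, against 1182 to 1783 on the other apical arrays. In apical versus middle 5 marginal cell, 3 intermediate cell and 2 fibrocyte markers were higher in the middle turn (7.59% of all genes). So were 1 smooth muscle and pericyte marker and 0 macrophage, skeletal muscle or bone markers. In middle versus basal 4 fibrocyte, 4 smooth muscle and pericyte, 3 intermediate cell and 2 macrophage markers were higher in the basal turn (9.21%). So were 1 skeletal muscle, 1 bone and 0 marginal cell markers. The part of these cells in the Kcnq1 and Kcne2 differences was not tested.

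**Figure D4:**
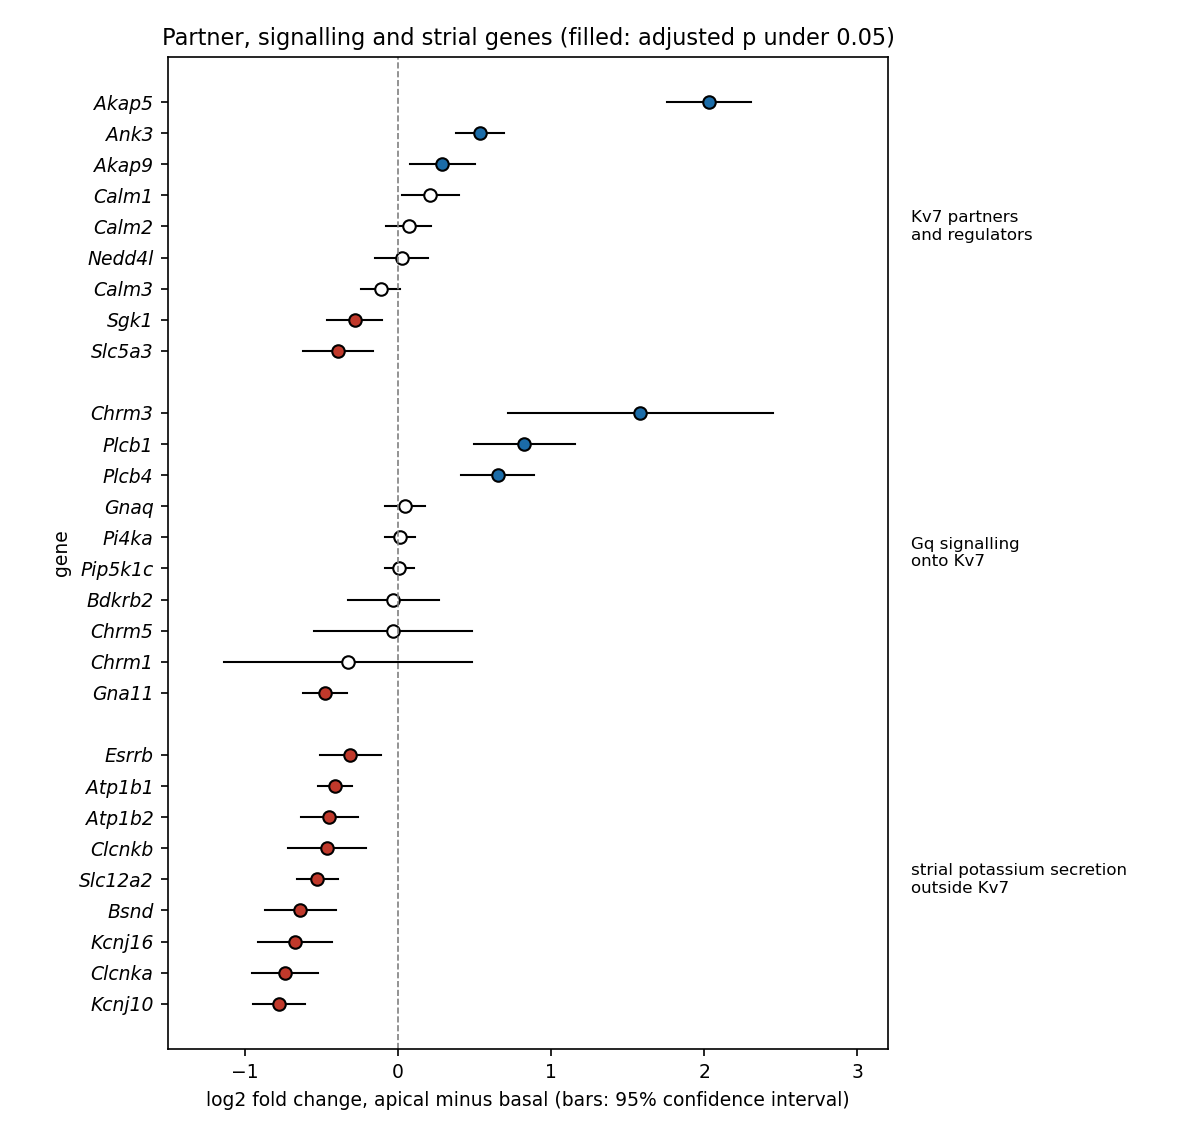
Log2 fold change of apical minus basal signal with its 95% confidence interval for the genes of the 3 lists (9 of the 10 strial genes are drawn), filled where the adjusted p was under 0.05, blue for higher in the apical turn and red for higher in the basal turn. The 9 strial genes drawn lie between -0.77 and -0.31, while the partner and signalling genes lie on both sides of 0, from -0.48 to 2.03.

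The genes whose profile over the 12 arrays was most like that of each member passing the F test were found by the root mean square difference of log2 values centred on their mean, among 14740 candidates (14741 for Kcne4) that had at least 1 probe well above background on each of the 12 arrays. For Kcnq1 they were Tmem116 (0.06), Fam118b (0.08) and Aldh3b2 (0.09), set against an SD of 0.30 for Kcnq1 itself over the arrays. Kcnq3 was closest to Ptpn5 (0.17), Dpysl2 (0.18) and Fbn1 (0.18), with an SD of 0.55. Kcne2 was closest to Tnfrsf23 (0.22), Prlr (0.22) and Scin (0.23), with an SD of 0.54. A candidate needed only 1 probe well above background, and the gene mean of Prlr was low, at 11.8, 13.3 and 22.7 in the apical, middle and basal turn. For Kcne4 the closest were Rassf6 (0.30), Egfl6 (0.32) and Ppapdc1a (0.32), with an SD of 1.03. Low signal limits this last match, since Kcne4 was not well above background on any basal array and Egfl6 had a basal mean of 22.8.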

How the data were processed

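RNA of 12 whole-turn samples was labeled with cyanine 3 and hybridized to Agilent exon arrays. Per the labels and methods, the authors extracted spot intensities with Agilent Feature Extraction 10.7.3.1, which subtracted the background. The deposited intensity values (the processed signal) were not normalized between arrays. The deposited series value table holds the same intensities, and 0 values differed. Deposited flags mark uneven spots, saturated spots and spots well above background.

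Control spots were left out, and a spot flagged on 1 or more arrays was dropped throughout, which removed 119 of 165984 probes. Signals were divided by the array's 75th percentile and log2 transformed, spots of a probe and then probes of a gene name were averaged, and the turns were compared with limma 3.58.1 (lmFit, eBayes) in R 4.3.3 and adjusted over all genes. Low signals were kept, without a pseudocount. The number of arrays limits the precision. A probe counted as well above background where all its spots were. The scripts were tested on simulated data.

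Members, gene lists, markers and tests were chosen with earlier results of these data known. Named are all members, from each list at most 4 genes past the threshold with the smallest adjusted p, the 3 most similar genes of each member passing the F test, each member's brightest probe and probes that differed from the rest of their gene. A further 10 marker lists were counted. Kcnq1ot1, listed as a partner, was not analysed here. The values of 1 listed strial gene and 1 probe alignment are not reported here. Alternatives were other scalings, background corrections, probe summaries, filters and designs, and each array left out in turn.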

Additional observations from a re-analysis of the deposited data

Results flagged for a closer look

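The Kcne2 signal of basal replicate 3 lay far below the other 3 basal arrays. Its gap to the nearest of them was 0.876 of the group's range on the log2 scale, above Dixon's 95% critical value for 4 samples. Of 21 groups of 4 arrays examined this was the 1 past that value, and chance passes about 1 in 20.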

How the results depend on the processing

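The apical versus basal differences of Kcnq1, Kcnq3, Kcne2 and Kcne4 kept their direction and passed under all 25 alternatives, with log2 values from -1.03 to -0.49, 0.45 to 1.27, -1.45 to -0.85 and 0.73 to 2.31. Some of the 25 could not have changed these differences. The series value table holds the same intensities, and leaving out a middle array alters the spread but not an apical minus basal difference. The filter for probes well above background removed no probe of Kcnq1 or Kcnq3, and it kept Kcne4 only through the apical turn. The count of 4 genes became 7 with scaling to the spike-in probes, which moved the median of all genes from -0.04 to -0.52, and 2 with the F test and a 2-fold minimum, which gave 0 in apical versus middle and 1 in middle versus basal. Scaling to the spike-in probes also brought the share of called genes higher in the apical turn from 45% to 5.13%, scaling to the median to 26.5%. When single arrays were left out, the counts ranged from 4 to 4 in apical versus basal, from 0 to 3 in apical versus middle (0 without middle replicate 4, and 1 without apical replicate 1, 2 or 3 or middle replicate 2) and from 2 to 3 in middle versus basal. Small differences changed sign, and the cause was not tested. For Kcnq5, apical minus basal was -0.094 with quantile normalization, -0.074 with scaling to the median, -0.44 with scaling to the spike-in probes and -0.012 with normexp, apical minus middle was 0.016 with well-above-background probes alone, and middle minus basal was -0.037 with quantile normalization and -0.11 with the spike-in probes. For Kcne3, apical minus middle was -0.0093 with quantile normalization, -0.13 with the spike-in probes and -0.040 with normexp, and ranged from -0.047 to 0.22 with an array left out. Middle minus basal was -0.14 for Kcne1 with the spike-in probes and ranged from -0.040 to 0.27 with an array left out, and for Kcnq1 from -0.14 to 0.040. Kcnq1 minus Kcne1 in apical versus middle was 0.069 with quantile normalization and 0.054 with the median of the probes, and ranged from -0.10 to 0.11 with an array left out.

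The labels do not say that a sample number marks a mouse. Deviations from the turn means correlated at -0.04 to 0.23 between same-numbered arrays (mean 0.095, 6 of 12 pairs over 0.1) and at -0.26 to 0.25 between the others (mean -0.03, 2 of 36 over 0.1). Not every array correlated best with its own number, so the numbers were not used as pairs. Which arrays share a mouse was not settled. With a replicate block on the sample number, 4, 2 and 3 members passed in apical versus basal, apical versus middle and middle versus basal, and 8167 in place of 7645 genes passed in apical versus basal. Kcne4 then had an adjusted p of 0.052 in apical versus middle. Low signal limits Kcnq5, the basal level of Kcne4 and, in part, Kcnq3.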
